A study of Mus musculus with 48 samples.

Results

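Amino acid transporters of the plasma membrane were examined in single cells of the mouse inner cell mass (ICM). The 10 genes, chosen by symbol and matched to Ensembl identifiers, were Slc3a2, Slc7a3, Slc7a5, Slc7a6, Slc7a7, Slc7a11, Slc38a1, Slc38a2, Slc38a4 and Slc1a5. They are 10 of 49671 genes in the count table, and 21943 of those genes, the 10 among them, were counted in some cell. The question was which transporters were higher in progenitors of the epiblast (pEPI) and which in progenitors of the primitive endoderm (pPrE).

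The study sequenced single cells from E3.75 blastocysts. The embryos came from natural matings of PDGFRa::H2B-GFP/+ mice, whose Pdgfra locus carries a nuclear green fluorescent reporter, with F1 hybrids of C57BL/6J and CBA/J, and each ICM was freed of trophectoderm by immunosurgery before dissociation. Libraries were made with Smart-seq2, which copies full-length polyadenylated RNA from 1 cell per well and carries no molecular identifiers. The 48 cells held between 1718970 and 7342785 counts. The study's expression dendrogram has a pEPI branch, with 25 of the cells, and a pPrE branch, with the other 23. The median total was 3751329 counts in pEPI and 4251373 in pPrE cells, and the median share of mitochondrial counts was 6.97% and 7.19%.

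The cells came from 3 embryos that carried the reporter. The labels do not say which embryo a cell came from, so the cells are 1 sample. They give a description of these cells without a test. The branches were drawn from expression in the same cells, and the transporters may have been among the genes used. Levels are FPKM, counts scaled to exon length and library size, given as the mean ± SD between cells. A log2 ratio is that of mean FPKM, pPrE over pEPI, and the 95% interval beside it covers counting error only.

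The branches differed in the markers of their lineages. These markers, too, may have been among the genes that drew the branches, so their levels describe the branches and do not test them. Of 16 pPrE markers, 14 had a mean log2(FPKM + 1) above 0.5, and 13 of these were at least 2-fold higher in pPrE cells. Over all 11193 genes above this minimum 5.43% were at least 2-fold higher in pPrE and 7.72% in pEPI. The pPrE markers were then summed. Their summed level was 147 ± 62.8 FPKM in pEPI and 586 ± 226 in pPrE cells, with Sparc the most abundant. Hnf4a went the other way (log2 ratio -1.26), and 1 cell held 88.4% of its pPrE counts. Of 12 pEPI markers, 11 passed the same minimum and 6 were at least 2-fold higher in pEPI cells, among them Nanog at 315 ± 221 against 43.7 ± 73.0 FPKM. Their sum was 1422 ± 618 FPKM in pEPI and 640 ± 309 in pPrE cells, and Tdgf1 was the most abundant. Among 13 trophectoderm markers the summed level was 226 ± 200 FPKM in pEPI and 306 ± 250 in pPrE cells, led by Fabp3. Of these markers 8 passed the minimum. Tfap2c was higher in pEPI (24.5 ± 21.8 against 1.70 ± 3.09 FPKM, log2 ratio -3.85), as was Krt18 (-1.17), and Dppa1 was higher in pPrE cells (0.257 ± 1.01 against 5.44 ± 9.53 FPKM, 4.41). Krt8, Tead4, Gata2 and Eomes were less than 2-fold apart, and Eomes had counts in 10 pEPI and 12 pPrE cells. The other 5 were at or near 0, with 58 counts in all pEPI and 2 in all pPrE cells for Cdx2, 41 and 0 for Krt7, 6 and 106 for Elf5, 66 and 372 for Gata3, and 125 and 62 for Hand1. What part trophectoderm RNA has in the transporter levels was not tested.

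Amino acids cross the cell membrane through carriers that exchange them for one another or take them up with sodium. Several light chains of the Slc7 family reach the surface only as partners of the glycoprotein heavy chain encoded by Slc3a2, whereas the cationic carriers of that family and the Slc38 and Slc1 carriers work without it. In the blastocyst such uptake feeds protein synthesis and mTORC1 signalling, and mouse pluripotent cells are known for their dependence on threonine catabolism.

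The pPrE cells had more of Slc7a6 and its heavy chain, and the pEPI cells had more of Slc7a3 and Slc38a4. At least 2-fold higher in pPrE were 3 of the 10 transporters, Slc7a6, Slc38a2 and Slc38a1, and at least 2-fold higher in pEPI was 1, Slc7a3. Slc7a6 passed 2-fold over all cells and in the 19 cells without counts on Y-linked genes (6.80-fold), and not in the 29 cells with them (1.76-fold). Over all 21858 genes with a level, 19.2% were at least 2-fold higher in pPrE and 23.3% in pEPI. Slc38a1 and Slc7a11 had a mean log2(FPKM + 1) under 0.5. Of the 8 transporters above it 2 were at least 2-fold higher in pPrE and 1 in pEPI, beside 5.43% and 7.72% of the 11193 genes above it. With so few members nothing is read from these shares. The difference of means was larger than the SD of both branches for 1 transporter, Slc7a6, which was higher in pPrE, and for 0 in the direction of pEPI. Over the 11193 genes this was so for 0.742% and 1.28%. The median log2 ratio was 0.29 over the 10 transporters and 0.01 over the 11193 genes.

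Summed over the 10 genes, the level was 179 ± 52.9 FPKM in pEPI and 241 ± 57.1 in pPrE cells. In both branches Slc7a6 was the most abundant by mean, with 32.3% of the sum in pEPI and 55.6% in pPrE cells. The pEPI rank held in the 17 cells with Y-linked counts, whereas in the 8 without them Slc7a3 (44.5 FPKM), Slc3a2 (30.3) and Slc38a4 (25.2) stood above Slc7a6 (19.9). Slc7a6 was the highest of the 10 in 21 of 23 pPrE cells and in 12 of 25 pEPI cells, where Slc7a3 led in 5, Slc38a4 in 4 and Slc3a2 in 4. Over all cells the order by mean FPKM was Slc7a6 (94.1 ± 55.1), Slc3a2 (51.7 ± 23.6), Slc38a4 (33.4 ± 23.4), Slc7a3 (10.1 ± 19.4) and Slc1a5 (8.92 ± 7.85). Slc7a7 (4.16 ± 7.08), Slc7a5 (4.16 ± 4.18), Slc38a2 (1.71 ± 2.55), Slc38a1 (0.188 ± 0.591) and Slc7a11 (0.0127 ± 0.0165) followed. No neighbours in this order were further apart than the larger of their SDs. The order differed by branch, with Slc38a4 (42.7 FPKM) above Slc3a2 (41.1) in pEPI cells and Slc7a3 in place 8 in pPrE cells. Within the order of pEPI cells, too, no neighbours were further apart than the larger of their SDs. Within pPrE cells Slc7a6 stood above Slc3a2, and Slc3a2 above Slc38a4, by more than either SD, and the other 7 gaps were smaller.

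**Figure D1:**
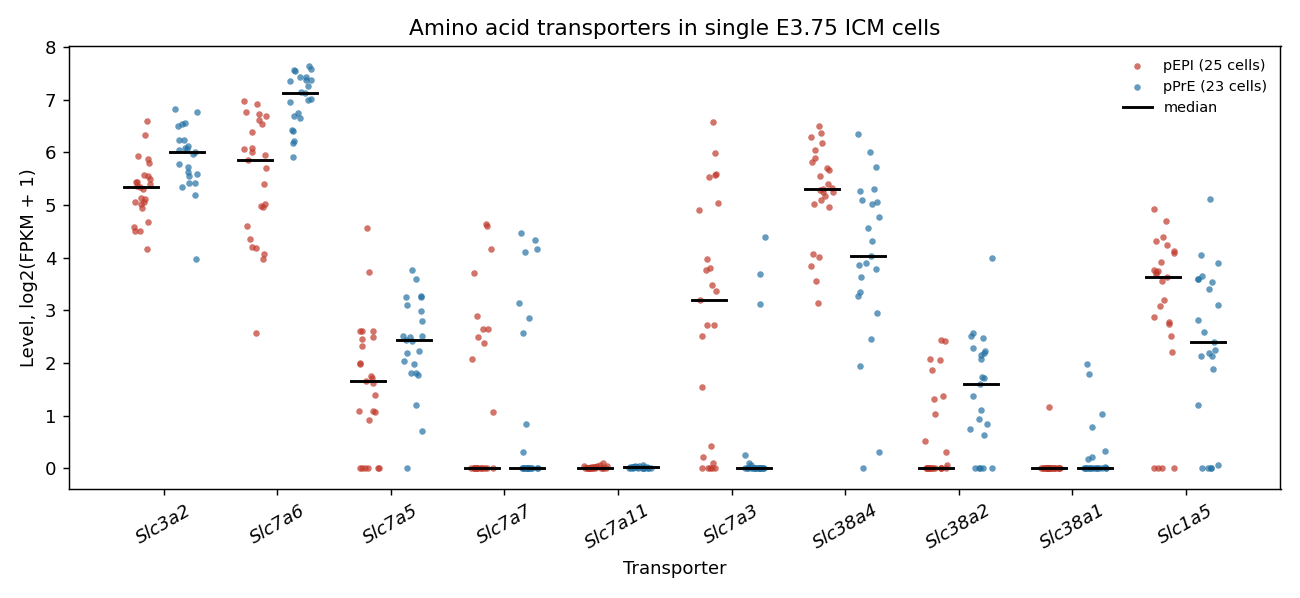
Level of each transporter in single cells as log2(FPKM + 1), with 1 point per cell for 25 pEPI (red) and 23 pPrE (blue) cells and the median of each branch as a black line. Slc7a6 is higher in most pPrE cells, Slc7a3 is at or near 0 in most of them, and Slc7a11 is near 0 in all cells.

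Slc3a2 (ENSMUSG00000010095, chr19:8706882-8723369 on GRCm38, minus strand) encodes the heavy chain CD98hc and was detected in all 48 cells. It ranged from 16.9 to 95.6 FPKM in pEPI cells with a median of 39.3, and from 14.7 to 112 in pPrE cells with a median of 63.4. The ranges overlapped widely, although 21 of 23 pPrE cells were above the pEPI median. The means were 41.1 ± 17.98 and 63.2 ± 23.9 FPKM (log2 ratio 0.62, interval 0.59 to 0.65), a difference within the pPrE SD.

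Slc7a6 (ENSMUSG00000031904, chr8:106168857-106198706, plus strand) encodes a light chain of system y+L, which carries cationic amino acids and exchanges neutral ones with sodium. It too was found in every cell. In pEPI cells it ranged from 4.97 to 124 FPKM with a median of 56.7, and in pPrE cells from 59.1 to 198 with a median of 138. Every pPrE cell was above the pEPI median, every pEPI cell was below the pPrE median, and 14 pPrE cells were above the highest pEPI cell. The means were 57.6 ± 37.2 and 134 ± 42.4 FPKM, 2.33-fold higher in pPrE (log2 ratio 1.22, interval 1.20 to 1.24). The log2 ratio was 0.82 in cells with and 2.77 in cells without Y-linked counts. In 90.4% of pairs of 1 pPrE and 1 pEPI cell the pPrE cell was higher. Relative to its heavy chain, log2 of Slc7a6 over Slc3a2 averaged 0.22 ± 1.07 in pEPI and 1.10 ± 0.72 in pPrE cells. In pEPI cells it was 0.64 ± 0.85 in the 17 with and -0.67 ± 0.95 in the 8 without Y-linked counts, and in pPrE cells 0.95 ± 0.72 and 1.27 ± 0.72.

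Of the other light chains, Slc7a5, which encodes the system L carrier of large neutral amino acids, was low. Its level ran from 0 to 22.5 FPKM in pEPI cells with a median of 2.16, and from 0 to 12.6 in pPrE cells with a median of 4.42. The ranges overlapped, and the means of 3.36 ± 4.80 and 5.03 ± 3.27 FPKM (log2 ratio 0.58) differed by less than either SD. Counts were found in 19 of 25 pEPI cells (76%, exact binomial 95% interval 54.9 to 90.6%) and in 22 of 23 pPrE cells (95.7%, 78.1 to 99.9%). At 10 CPM or more, the count scaled to the total of the cell, it was present in 10 of 25 pEPI cells (40%, 21.1 to 61.3%) and in 19 of 23 pPrE cells (82.6%, 61.2 to 95.05%). Well E2 alone held 30.7% of all pEPI counts of Slc7a5, and without the cells of well letter E the log2 ratio was 1.35.

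Slc7a7, a second light chain of system y+L, was absent from most cells of both branches, with counts in 11 of 25 pEPI and 9 of 23 pPrE cells. It reached 23.9 FPKM in pEPI and 21.2 in pPrE cells, the median was 0 in both, and the means were 4.25 ± 7.20 and 4.07 ± 7.11 FPKM. The log2 ratio of -0.06 (interval -0.18 to 0.05) had the other sign in 4 of 17 alternative settings, and without the cells of well letter D it was -0.93. Exons of Oxa1l on the opposite strand cover 232 bases of its exons (6.998%), where reads of the unstranded libraries cannot be told apart.

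Slc7a11, which encodes the cystine carrier xCT, was barely detected. All pEPI cells together held 16 counts (exact Poisson 95% interval 9.15 to 25.98) and all pPrE cells 18 (10.7 to 28.4). Of the pEPI cells 10 of 25 held a count, as did 13 of 23 cells on the pPrE branch, and no cell reached 10 CPM. A difference between the branches was not detectable at this depth (log2 ratio 0.00, interval -1.05 to 1.07).

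Slc7a3 (ENSMUSG00000031297, chrX:101079210-101086020, minus strand) encodes the cationic amino acid carrier CAT3, which works without a heavy chain. In pEPI cells it ranged from 0 to 94.1 FPKM with a median of 8.13, and in pPrE cells from 0 to 19.96 with a median of 0. The ranges overlapped at the low end, while 7 pEPI cells were above the highest pPrE cell. Counts were found in 20 of 25 pEPI cells (80%, 59.3 to 93.2%) and in 6 of 23 pPrE cells (26.1%, 10.2 to 48.4%). The means were 17.7 ± 24.2 and 1.73 ± 4.91 FPKM, 10.2-fold higher in pEPI (log2 ratio -3.35, interval -3.45 to -3.25), and their difference was smaller than the pEPI SD. In pPrE cells 48.05% of the counts came from well F5. Without the cells of well letter F the log2 ratio was -5.37, and without the highest cell of each branch it was -4.01.

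Among the sodium-coupled Slc38 carriers of small neutral amino acids, Slc38a4 was the most abundant. This gene (ENSMUSG00000022464, chr15:96994820-97055956, minus strand) is imprinted in the mouse and expressed from the paternal copy in many tissues. It ranged from 7.77 to 89.7 FPKM in pEPI cells with a median of 38.6, and from 0 to 80.1 in pPrE cells with a median of 15.3. The ranges overlapped over most of their length, and 20 of 23 pPrE cells were below the pEPI median. The means were 42.7 ± 22.3 and 23.2 ± 20.6 FPKM (log2 ratio -0.88, interval -0.91 to -0.84), which differed by less than either SD. By medians it was more than 2-fold higher in pEPI, at a log2 ratio of -1.34. With cells grouped by whether Nanog or Gata6 was higher, the log2 ratio of means was -0.51.

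Slc38a2, whose carrier SNAT2 is known for its induction by amino acid shortage, was higher in pPrE cells at a low level. It ranged from 0 to 4.40 FPKM in pEPI cells with a median of 0, and from 0 to 14.9 in pPrE cells with a median of 2.03. Counts were present in 11 of 25 pEPI cells (44%, 24.4 to 65.1%) and 18 of 23 pPrE cells (78.3%, 56.3 to 92.5%), and 4 pPrE cells were above the highest pEPI cell. The means were 0.905 ± 1.46 and 2.58 ± 3.17 FPKM, 2.85-fold higher in pPrE (log2 ratio 1.51, interval 1.40 to 1.62), a difference within the pPrE SD. On log2(FPKM + 1) the difference of means was 0.82.

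Slc38a1, which encodes SNAT1 of the same group, was seen in few cells. Only E7 among 25 pEPI cells had counts (1.25 FPKM), against 8 of 23 pPrE cells with up to 2.96 FPKM. The summed counts were 95 (76.9 to 116) and 636 (588 to 687), of which 43.6% of the pPrE counts came from well B8. The log2 ratio of 2.75 (interval 2.44 to 3.08) rests on these cells. It was 0.57 by Ward clusters and 0.67 by Nanog against Gata6, groupings that both move B8 out of pPrE, and the difference of mean log2(FPKM + 1) was 0.23, so the 2-fold call was lost in each. Without the cells of well letter B the log2 ratio was 1.94. Without those of letter E pEPI cells held no count, and it was 7.27 with pEPI set to a floor of 3 counts over the branch.

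Slc1a5, the sodium-dependent exchanger ASCT2 that takes up glutamine, was present at modest levels in both branches. It ranged from 0 to 29.2 FPKM in pEPI cells with a median of 11.3, and from 0 to 33.5 in pPrE cells with a median of 4.30. The ranges were nearly the same, with 19 of 23 pPrE cells below the pEPI median. The means were 10.8 ± 7.79 and 6.86 ± 7.54 FPKM (log2 ratio -0.66, interval -0.73 to -0.59), which differed by less than either SD. The log2 ratio of medians was -1.40. That of means was closer to even in other groupings of the cells, at -0.36 by Ward clusters and -0.12 by Nanog against Gata6.

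The cells fell into 2 kinds by their counts on 4 Y-linked genes, and the transporter levels differed between these kinds within a branch. There were 29 cells with 242 to 1298 such counts and 19 cells with 0 or 1. Cells of different kinds must come from different embryos, and with 3 embryos at least 1 of the kinds is a single embryo, so sex and embryo cannot be told apart. The pEPI branch held 17 cells with and 8 without Y-linked counts, and the pPrE branch 12 and 11. All cells of well letters A, B and E had Y-linked counts, all of letter D lacked them, and C and F held both kinds. Leaving out the cells of a letter therefore also changed the mix of kinds.

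In pEPI cells Slc7a6 averaged 75.3 ± 31.7 FPKM with and 19.9 ± 8.36 without Y-linked counts, 3.79-fold apart, and 16 of the 17 former cells were above the highest of the 8 latter. In pPrE cells it averaged 133 ± 41.4 and 135 ± 45.5 FPKM, so the kinds were alike there. Slc7a3, on the X chromosome, showed the opposite order within pEPI, at 5.08 ± 5.32 FPKM with and 44.5 ± 27.2 without Y-linked counts, 8.77-fold apart. Of the 8 cells without Y-linked counts 7 were above all 17 others. All 6 pPrE cells with Slc7a3 counts, of which 3 reached 10 CPM, lacked Y-linked counts. In cells without Y-linked counts the log2 ratio was -3.62. In cells with Y-linked counts 12 of 17 pEPI cells and no pPrE cell had a count of Slc7a3. With pPrE set to a floor of 3 counts over the branch it was 304-fold higher in pEPI, a value that depends on this floor.

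Slc7a7 was also higher in cells without Y-linked counts, in both branches, although its gene lies on chromosome 14. It averaged 9.79 ± 9.18 against 1.65 ± 4.27 FPKM in pEPI and 8.41 ± 8.45 against 0.0865 ± 0.233 in pPrE cells. Its log2 ratio between branches was -4.25 in cells with Y-linked counts, where the pPrE cells held 10 counts in all, and -0.22 in cells without. In cells with Y-linked counts, well F1 held 265 of the 405 pEPI counts of Slc7a7. Slc38a4 went the other way in both branches, with 50.9 ± 20.9 against 25.2 ± 13.9 FPKM in pEPI and 32.6 ± 22.3 against 13.03 ± 12.9 in pPrE cells. Its log2 ratio between branches was -0.64 with and -0.95 without Y-linked counts. Slc7a5 averaged 4.34 ± 5.50 FPKM with and 1.28 ± 1.67 without Y-linked counts in pEPI cells, 3.40-fold apart, and 5.07 ± 4.19 and 4.98 ± 2.05 in pPrE cells, so that its log2 ratio between branches was 0.23 with and 1.96 without. The log2 ratio was 1.09 with and 2.54 without for Slc38a2, 0.54 and 0.96 for Slc3a2, and -0.999 and -0.47 for Slc1a5. The Slc38a2 value without rests largely on C7 in pEPI (3.17 FPKM, mean 0.487) and D1 in pPrE (14.9, mean 2.84). For Slc38a1 the log2 ratio was 2.58 with and, with the pEPI cells set to a floor of 3 counts, 5.38 without. Of the 201 pPrE counts of Slc38a1 without, 199 came from well F6, so that value rests on 1 cell. For Slc7a11 the log2 ratios were 0.05 and -0.22. What part sex or embryo has in these differences was not tested.

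**Figure D2:**
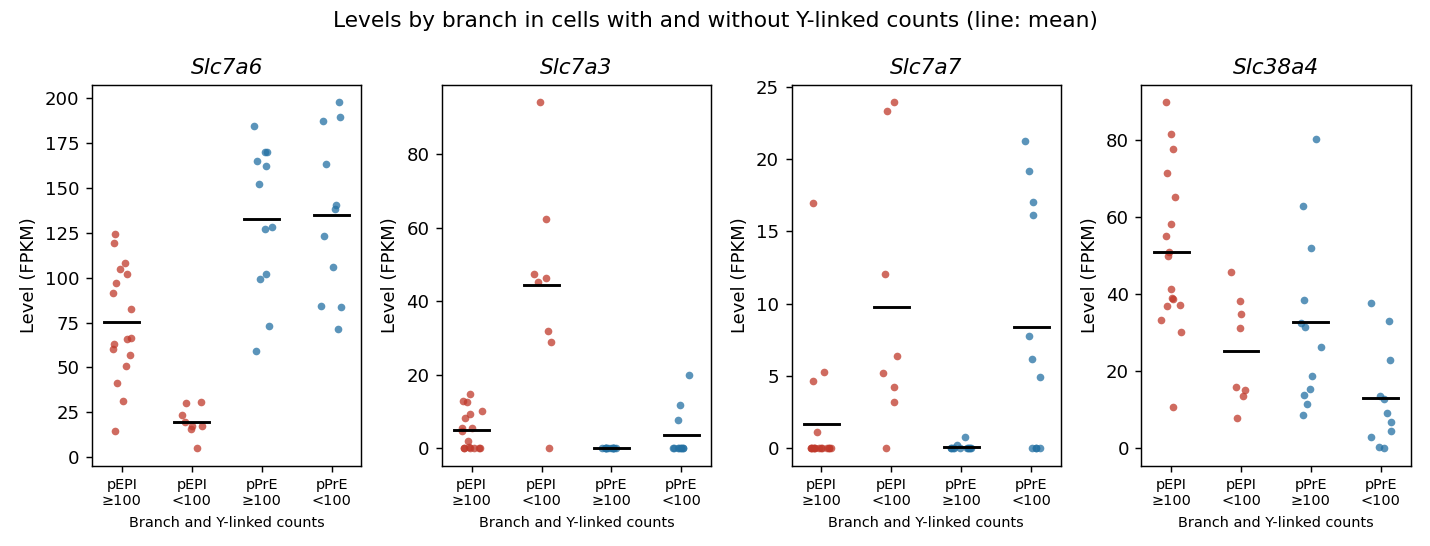
Level in FPKM of Slc7a6, Slc7a3, Slc7a7 and Slc38a4 in single cells by branch (pEPI red, pPrE blue) and by counts on Y-linked genes (at least 100 or under 100), with the mean as a black line. In the 8 pEPI cells under 100 Y-linked counts Slc7a6 is lower than in 16 of the 17 others, and in 7 of these 8 cells Slc7a3 is higher than in all 17.

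The transporters were compared with each other over cells by Spearman's rho of log2(FPKM + 1), as a description. Each value comes from 1 library per cell, so both genes of a pair share that cell's depth, and cells of 1 embryo are not independent. Slc7a6 was higher in cells with more of its heavy chain Slc3a2 over all 48 cells (rho 0.57), with 0.49 within pEPI and 0.22 within pPrE cells. Slc7a6 and Slc7a3 went in opposite directions over all cells (-0.58) and within pEPI (-0.54), and not within pPrE (0.14). Within pEPI cells of 1 kind these relations were weaker. For Slc7a6 and Slc7a3 rho was -0.21 in the 17 cells with Y-linked counts and -0.31 in the 8 without, and for Slc7a6 and Slc3a2 it was 0.22 and -0.10. Within pPrE cells rho of Slc7a6 and Slc3a2 was -0.12 in the 12 cells with and 0.45 in the 11 without Y-linked counts, and that of Slc7a6 and Slc7a3 was 0.10 in the 11 without.

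**Figure D3:**
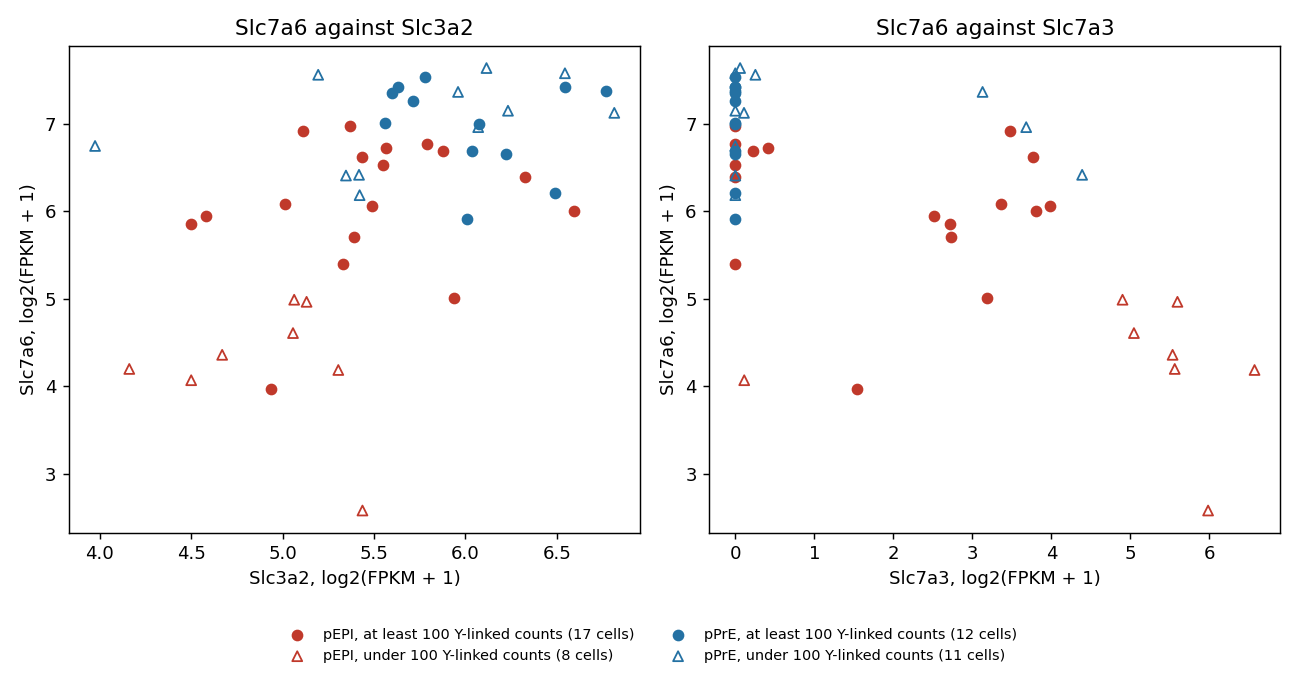
Slc7a6 against Slc3a2 (left) and against Slc7a3 (right) in 48 single cells, both axes log2(FPKM + 1), with pEPI cells in red and pPrE cells in blue, and filled circles for cells with at least 100 and open triangles for cells with under 100 Y-linked counts. The 8 pEPI cells under 100 Y-linked counts have low Slc7a6, and 7 of them have the highest Slc7a3 of all cells.

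Along the balance of lineage factors, log2(FPKM + 1) of Nanog minus that of Gata6, Slc7a6 had rho -0.79 over the 48 cells and -0.61 within pEPI cells. For Slc3a2 these were -0.47 and -0.47, and for Slc7a3 0.54 and 0.40. Within pPrE cells the values were -0.33, 0.10 and -0.06. This balance itself differed between the kinds of pEPI cells, with a median of 4.16 in the 17 with and 7.53 in the 8 without Y-linked counts. Within the 17, rho was -0.53 for Slc7a6, -0.35 for Slc3a2 and 0.28 for Slc7a3, and within the 8 it was -0.02, -0.38 and -0.05. In pPrE cells rho for Slc7a6 was -0.52 in the 12 with and 0.06 in the 11 without Y-linked counts. For Slc3a2 it was 0.34 and 0.04 there, and for Slc7a3 -0.40 in the 11 without. None of the 10 had a rho with the log total count beyond 0.16 in size. With branch means removed, but not the means of the kinds by Y-linked counts, the genes most like Slc7a6 among 8929 with mean log2(FPKM + 1) above 1 were Uap1 (rho 0.75), P4ha2 (0.72) and Lamb1 (0.66), each also higher in pPrE cells with log2 ratios of 1.496, 2.15 and 1.95. Lamb1 encodes a laminin chain and P4ha2 a subunit of collagen prolyl hydroxylase. For Slc38a4 they were Snhg1 (0.79), Pgrmc1 (0.65) and Eif5a (0.64), for Slc7a3 the pseudogene Gm14270 (0.60), Pdpk1 (0.56) and Atp6ap2 (0.53), and for Slc38a2 Ndufv2 (0.54), Commd7 (0.53) and Eef1e1 (0.50).

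A further list of 47 amino acid transporters was read beside the 10. Of these, 16 had no count in any cell and 14 passed the minimum on mean level, with a median log2 ratio of 0.02. Over the 11193 genes above it 5.43% were at least 2-fold higher in pPrE and 7.72% in pEPI. At least 2-fold higher in pPrE were 2 of the 14, the glutamate and aspartate carrier Slc1a3 at 4.91 ± 4.64 against 16.01 ± 7.66 FPKM (log2 ratio 1.71) and the cationic carrier Slc7a1 at 2.93 ± 2.91 against 6.63 ± 5.26 (1.18). At least 2-fold higher in pEPI were 3 of the 14. The X-linked Slc6a14 had 15.7 ± 20.8 against 0.739 ± 2.43 FPKM (-4.41), and 54.5% of its pPrE counts came from 1 cell. The glutamate carrier Slc1a1 had 24.5 ± 19.3 against 5.34 ± 4.71 (-2.20) and the neutral carrier Slc6a15 3.72 ± 4.74 against 0.810 ± 1.53 (-2.20). Among cationic carriers Slc7a1 was thus higher in pPrE and Slc7a3 in pEPI, and among glutamate carriers Slc1a3 and Slc1a1 differed in the same way. Unlike Slc7a3, Slc6a14 within pEPI was higher in cells with Y-linked counts (19.9 ± 23.6 FPKM) than in those without (6.58 ± 8.95). The most abundant of the list was Slc43a3, at 33.8 ± 21.3 and 20.04 ± 10.2 FPKM.

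Enzymes that use the carried amino acids and pathways that sense them were read against the same shares of all genes, 5.43% in pPrE and 7.72% in pEPI. Of 21 listed enzymes 19 passed the minimum, 3 were at least 2-fold higher in pPrE and 3 in pEPI, and the median log2 ratio was 0.10. Asparagine synthetase, Asns, the most abundant over all cells, was at 95.5 ± 80.4 FPKM in pEPI and 195 ± 113 in pPrE cells (log2 ratio 1.03). Phgdh of serine synthesis (1.62) and Mthfd2 of mitochondrial folate metabolism (1.17) had the same direction. Each of these 3 differences was within the pPrE SD. Less than 2-fold apart were Psat1 and Psph, also of serine synthesis, at -0.38 and 0.47, and Shmt2 at 0.02. Threonine dehydrogenase, Tdh, was at 116 ± 66.1 against 29.8 ± 22.5 FPKM (-1.97), and its partner Gcat (-1.05) and the glutaminase Gls2 (-1.30) were higher in pEPI as well. The Tdh difference exceeded both SDs. The ATF4 pathway, which responds to amino acid shortage, had 13 of 19 genes above the minimum, with the same 3 enzymes at least 2-fold higher in pPrE, the sensor kinase Eif2ak4 lower (-1.05) and a median of 0.37. Among 24 of 27 genes of amino acid sensing by mTORC1 1 passed 2-fold, Castor1 (-1.03), which is no more than the share of all genes. The median was -0.03, and Lamtor5 was the most abundant. Of 7 glutathione genes above the minimum, Gclm was higher in pEPI (-1.26) and Gclc in pPrE (1.02), with Gpx4 the most abundant. Gclc was low, at 0.692 ± 1.94 against 1.40 ± 2.17 FPKM, with counts in 3 pEPI and 11 pPrE cells and a median of 0 in both branches.

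Promoter windows of 300 bases around the start of transcription, from RefSeq on GRCm38.p6, were found for 6 of the 10 genes. They were searched on both strands for TGATGNAA, the core of the composite element bound by ATF4, which 3.97% of 32851 promoter windows hold. It occurred in 3 of the 13 windows of these 6 genes, some of which overlap. The windows with a match belonged to 2 transporters, Slc7a11 and Slc7a7, neither of which was 2-fold higher in a branch over all cells. Those of Slc7a7 overlap and share a match, which is thus counted more than once. The window of Slc7a11 is shown because it holds the letters at 2 places (capitals) while the gene was near 0. Those of the light chain Slc7a6 (the first of its windows) and its heavy chain Slc3a2, which had the highest mean levels of the 10 over all cells pooled, are shown beside it and hold none. The Slc3a2 window lies inside the span given above for that gene, and the upstream end of the span was not searched. A match is a description of the letters and not of binding.
Slc7a11, chr3:50443564-50443863, minus strand: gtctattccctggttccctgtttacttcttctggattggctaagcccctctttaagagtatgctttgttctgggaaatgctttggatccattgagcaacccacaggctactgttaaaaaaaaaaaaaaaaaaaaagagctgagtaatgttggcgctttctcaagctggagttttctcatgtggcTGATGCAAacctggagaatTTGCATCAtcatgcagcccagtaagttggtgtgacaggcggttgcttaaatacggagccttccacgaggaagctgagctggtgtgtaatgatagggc
Slc7a6, chr8:106168604-106168903, plus strand: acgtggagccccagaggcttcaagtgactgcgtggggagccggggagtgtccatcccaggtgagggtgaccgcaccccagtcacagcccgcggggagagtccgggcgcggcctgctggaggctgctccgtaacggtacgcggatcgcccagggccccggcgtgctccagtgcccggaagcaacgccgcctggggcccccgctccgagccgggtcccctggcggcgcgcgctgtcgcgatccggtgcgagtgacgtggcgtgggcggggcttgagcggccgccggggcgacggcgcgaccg
Slc3a2, chr19:8713848-8714147, minus strand: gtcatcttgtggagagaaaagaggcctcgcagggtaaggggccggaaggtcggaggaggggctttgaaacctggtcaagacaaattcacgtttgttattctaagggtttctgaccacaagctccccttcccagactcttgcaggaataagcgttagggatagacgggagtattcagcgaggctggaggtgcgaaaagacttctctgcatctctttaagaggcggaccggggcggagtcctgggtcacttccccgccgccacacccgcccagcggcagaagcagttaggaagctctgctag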

How the data were processed

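RNA was measured in 48 single cells by Smart-seq2. The deposited values are raw counts per gene made by the authors. The submitters' processing notes name STAR, HTSeq and the build mm10, and the methods state htseq-count on Ensembl genes and the removal of libraries with few mapped reads, uneven gene body coverage or an outlying place in PCA. All columns matched a labelled cell. The groups are the 2 branches of the study's dendrogram, pEPI and pPrE, as read by eye, and the labels tie no cell to an embryo. The test between cells that the study ran with scde was therefore not repeated.

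FPKM was computed from the union of exons in GENCODE M21 (GRCm38) for 21858 of the 21943 genes with a count, with median-of-ratios library sizes, as the fpkm function of DESeq2 does. Log2 values used a pseudocount of 1. Intervals are exact (Clopper-Pearson for shares, Poisson for sums) at 95%. The interval of a log2 ratio takes its width from the ratio of summed counts and covers counting error only, since PCR copies of a molecule are counted separately. Binomial intervals treat cells as independent draws. A branch at 0 was set to a floor of 3 counts. The ratio then depends on this floor and is not a lower bound, since a molecule can give many counts. The steps were tested on simulated data.

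All 10 transporters were named. From each further list, up to 4 genes a direction with the largest ratio of at least 2-fold and the most abundant gene could be named, as well as the 3 genes most like the 2 transporters of largest ratio in each direction (mean log2(FPKM + 1) above 1). Further genes in the accounts of the trophectoderm markers and of serine synthesis were chosen after their values were seen. The members and lists were chosen with earlier results of these data known. Alternatives were library size, summary over cells, pseudocount, thinning, grouping of cells, Y-linked counts (at least 100 or under), well letters, the highest cell, the filter on low values, the detection minimum and gene length. The work was done in Python 3.11.15 with scipy 1.17.1, pandas 2.3.3, numpy 2.4.6 and, for plots, matplotlib 3.10.9.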

Additional observations from a re-analysis of the deposited data

How the results depend on the processing

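The 3 transporters at least 2-fold higher in pPrE became 1, Slc7a6, by the difference of mean log2(FPKM + 1), and numbered 2 to 4 under the others. Slc7a5 was among them by median FPKM, with 0.1 in place of 1, in cells with under 100 Y-linked counts and without the cells of well letter E. Slc38a1 was not by median FPKM, with 0.1, by Ward clusters or by Nanog against Gata6, nor was Slc7a6 in cells with at least 100 Y-linked counts. The 1 at least 2-fold higher in pEPI, Slc7a3, was joined by Slc38a4 and Slc1a5 to make 3 by median FPKM, by Slc38a4 to make 2 by the difference of mean log2(FPKM + 1) and by that with 0.1 in place of 1, by Slc7a7 to make 2 within cells with at least 100 Y-linked counts, and by Slc38a4 to make 2 without the cells of well letter E. With the filter on mean level, added after seeing the data, the counts were 2 and 1. The share of all genes at least 2-fold higher in either branch was 13.2% with the filter at 0.5, 42.4% with no filter and 9.22% with the filter at 1. No transporter that was 2-fold apart changed its direction under any of the 18 alternatives that gave it a value. Slc7a3 was past 2-fold in 18 of 18, Slc7a6 in 17 of 18, the exception being cells with at least 100 Y-linked counts, Slc38a2 in 17 of 18 and Slc38a1 in 13 of 17. The sign of PC1 of 3531 variable genes without the transporters placed all 48 cells as the branches did, Ward clusters placed 45 and Nanog against Gata6 placed 39. The order by FPKM was the same with the longest transcript as length. Why the counts differ was not tested. In cells with at least 100 Y-linked counts, 265 of the 405 pEPI counts of Slc7a7 came from well F1. The level of Slc7a11 is limited by depth and that of Slc38a1 rests on few cells. The 48 cells of unlabelled embryos give no measure of spread between embryos.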
